A study of Rattus norvegicus with 15 samples.

Results

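The comparison described here set cultured rat brain microvascular endothelial cells (BMECs) collected 24 h after a single x-ray dose of 20 Gy against unexposed control cells. The libraries were chosen by their labels alone, as the 3 labelled 20 Gy and 24 h and the 3 labelled control, which made 6 of the 15 RNA sequencing libraries of the series. The cells were primary cultures from the cerebral microvessels of Sprague-Dawley littermates aged 2 to 3 weeks, enriched by differential adhesion, and carried no engineered allele. Exposure was to x-rays from a linear accelerator, and control cultures were handled the same way without x-rays. The control cultures were labelled as kept for 12 h, and no unexposed culture of 24 h was analysed here, so the effect of x-rays and the effect of the longer culture time cannot be told apart in this comparison. The libraries collected 24 h after 5 Gy and 12 h after 20 Gy, 3 of each, were used to show where the response to 20 Gy at 24 h differed with dose or with time. The labels did not tie libraries to animals, so all p-values measure the spread between libraries, which may be technical.

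Ionizing radiation breaks DNA, and the break sensors stabilize p53, a transcription factor that switches on inhibitors of the cell cycle, its own feedback regulators, repair genes and pro-death genes. Proliferating cells that stop at a checkpoint lose the transcripts of replication and mitosis. Brain microvascular endothelium is a radiosensitive part of the brain that lines capillaries, forms the blood-brain barrier with its tight junctions and transporters, and is held by a basement membrane.

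Expression was measured as FPKM, the fragments mapped to a transcript relative to its length and to all fragments of the library. The values of the transcripts of 1 gene were added, and 13081 of 28906 named genes passed a filter of a mean of at least 0.5 FPKM over the 15 libraries. Fold changes below are differences of the mean log2(FPKM + 1), a scale that understates the change of low genes, and a gene was called where limma gave a Benjamini-Hochberg adjusted p under 0.05 with a fold change of at least 1.5. With 3 libraries against 3, a two-sided exact permutation test of 1 gene cannot go below p = 0.1, and every gene whose groups did not overlap had that value. Between 6.23 and 6.73 gigabases were aligned in the control libraries and between 6.51 and 7.49 in the exposed ones, as recovered from the spacing of low FPKM values. Of the tested genes, 1140 lay in assembled loci that hold several gene names, where transcripts without a name were left out, so that their values can shift between transcripts of a locus, and this is stated beside each such gene named below. Library strand was not stated, so reads of overlapping genes cannot be told apart.

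The labelled cell type was checked against marker genes before any comparison. Of 36 endothelial and barrier markers, 3 (Pecam1, Abcb1a and Foxf2) were not analysed here, 20 fell below the filter and 13 were tested. Tie1, Emcn, Sox17, Slco1c1 and Robo4 were listed at 0 in all 6 libraries, Cdh5, the junctional cadherin of endothelium, reached at most 0.275 FPKM, Vwf at most 0.097 and Cldn5, the main claudin of the barrier, at most 0.0328. Genes of meningeal and perivascular fibroblasts were abundant, with a summed level of 4754 to 4924 FPKM in control libraries against 56.7 to 71.5 for the endothelial list. All 20 markers below the filter lay in loci with 1 gene name, and no such locus exceeded 0.731 FPKM in any of the 6 libraries. A value of 0 in the table can also be a failed estimate, since the named transcript of the constitutive chaperone gene Hspa8 was listed at 0 in every library. These 20 markers, Cdh5, Vwf and Cldn5 among them, were thus listed at or near 0 in control and exposed cultures alike. The name BMECs is kept below as the label only.

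Exposure to 20 Gy followed by 24 h was accompanied by a broad change of the transcriptome. In total, 2444 genes were higher (18.7% of the genes tested) and 2984 were lower (22.8%), and 2688 further genes had an adjusted p under 0.05 with a fold change under 1.5. A log2 change of at least 1 was reached by 1226 of the higher and 1475 of the lower genes, and a change of at least 2 by 231 and 253. The control and exposed libraries did not overlap in 8483 genes (64.8%), and 102 of the called genes had groups that overlapped. The median log2 change over all tested genes was -0.10. After quantile normalization it was -0.03 and 50.2% of called genes were higher, against 45% without it, while rescaling to equal FPKM sums gave -0.04 and 50.6%. Restricted to the 11941 genes in loci with 1 name, 2305 were higher and 2756 lower.

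**Figure D1:**
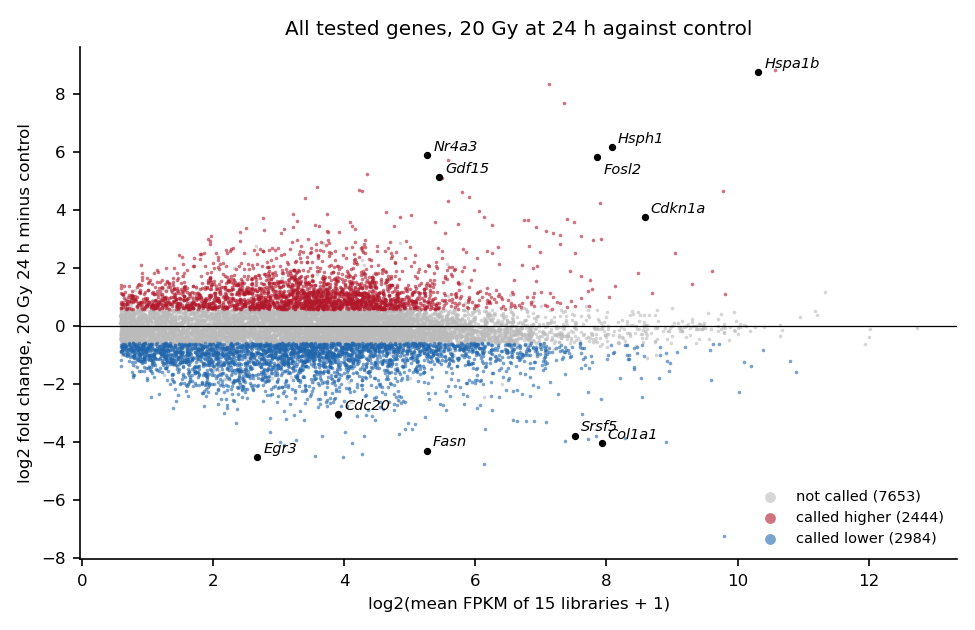
Log2 fold change of each tested gene between 20 Gy at 24 h and control (vertical axis) against its mean level over 15 libraries as log2(FPKM + 1) (horizontal axis), with genes called higher and lower in colour and the rest in grey. The 2444 higher and 2984 lower genes spread over the whole range of levels, and the Hsp70 genes and Hsph1 lie at the top.

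Heat shock and immediate early genes were frequent among the steepest rises. Of the 15 genes with the largest rise among those with a mean of at least 5 FPKM, 4 were chaperone genes or copies of one, 5 were transcription factors of the immediate early group or related to it (Nr4a3, Fosl2, Nr4a2, Crem) or a MAP kinase phosphatase of that group (Dusp1), Gdf15 was the 1 p53 target among them, and the other 5 belonged to none of these groups. Among the 15 largest falls were mitochondrial transcripts, Egr3, Fasn and fibrillar collagen genes, as well as Timp1 and Slc37a3, whose loci are shared, and Mt-nd2, which was listed at 0 in 2 exposed libraries. Gene groups are described by 40 lists, in which 853 tested genes had a place, and counts of members cover those that passed the filter on low values. Members with little or no signal in control libraries, such as Foxq1, Tjp1, Birc3 and Gbp4, passed it only through exposed libraries and could only be called higher. Counts against control are to be read beside the 18.7% higher and 22.8% lower of all tested genes.

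**Figure D2:**
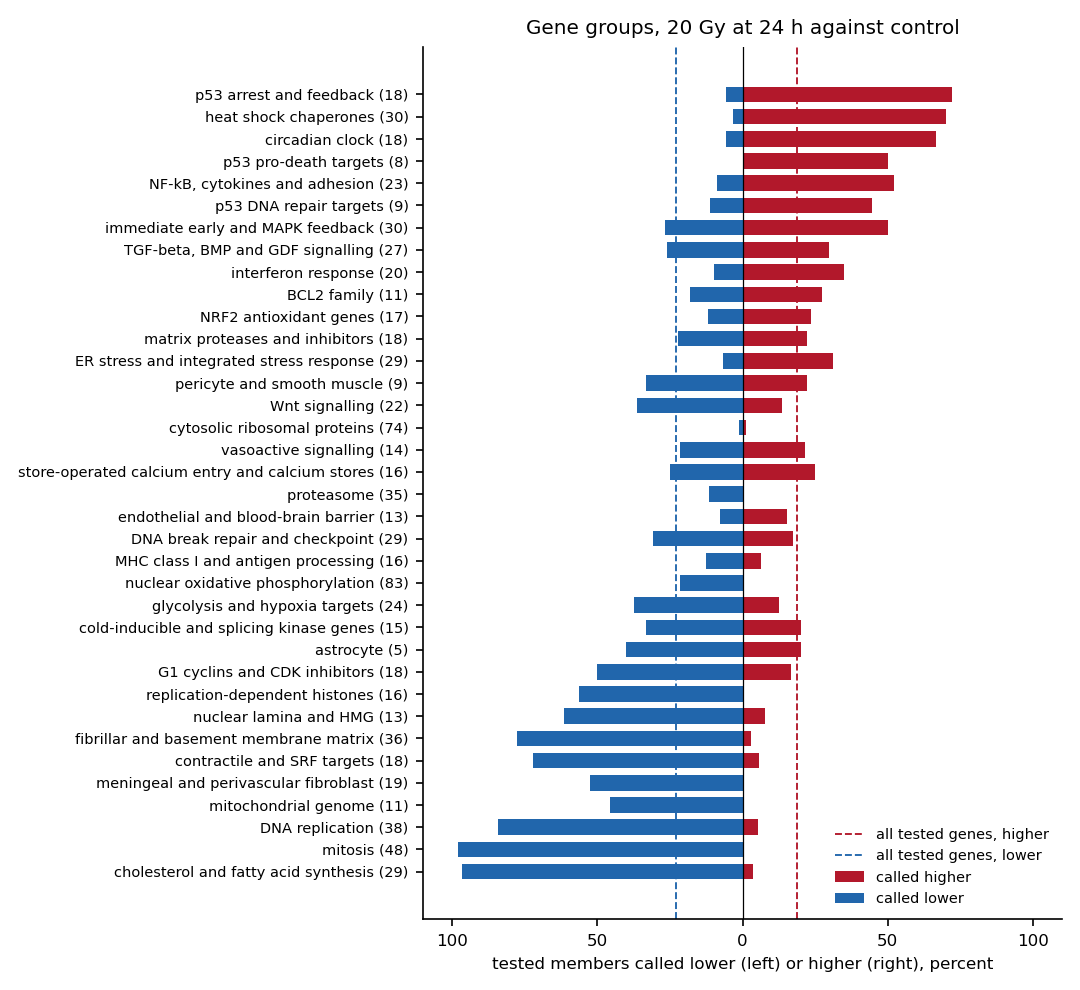
Share of the tested members of each gene list called higher (right) or lower (left) at 20 Gy and 24 h, in percent, for lists of at least 5 tested genes, with dashed lines at the shares of all tested genes and the number tested in brackets. Heat shock and p53 arrest genes extend to the right with 21 of 30 and 13 of 18 members higher, while mitosis, cholesterol and matrix genes extend to the left with 47 of 48, 28 of 29 and 28 of 36 members lower.

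The p53 targets of cell cycle arrest and feedback rose. Of 18 tested members 13 were higher and 1 was lower, with a median log2 change of 1.98 against -0.10 for all genes. Cdkn1a, which encodes the kinase inhibitor p21, was at 52.1, 31.6 and 56.8 FPKM in the control libraries and at 638, 524 and 759 in the exposed ones. The groups were far apart, with means of 46.9 ± 13.4 and 640 ± 117 FPKM (SD, n = 3 each) and a log2 change of 3.77 (SE 0.33, limma adjusted p = 7.51e-07). Gdf15, a stress cytokine of the TGF-beta family, rose from 1.43 ± 0.337 to 85.2 ± 13.8 FPKM (SD, n = 3 each), a log2 change of 5.15. Mdm2, the ubiquitin ligase that removes p53, was at 22.7, 23.2 and 26.7 FPKM in control cells and at 182, 216 and 127 after exposure. Plk2, Btg2, an antiproliferative gene, Tp53inp1 and Sesn2, a stress-inducible sestrin, rose by 4.33, 3.50, 3.16 and 2.36 on the log2 scale. Tigar, a regulator of sugar metabolism in the same list, was the member that fell, by 0.78.

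Among p53 targets with a role in DNA repair, 4 of 9 were higher and 1 was lower, with a median log2 change of 0.74. The translesion polymerase genes Polk and Polh rose by 1.74 and 1.39 and Gadd45a by 1.11, whereas Pcna, the replication clamp, fell from 113 ± 20.6 to 44.9 ± 0.812 FPKM (SD, n = 3 each). Of 8 tested pro-death targets, 4 were higher and none lower. They were the death receptor genes Eda2r and Fas, with log2 changes of 3.92 and 2.54, Ei24 with 1.33 and Bax, a pore-forming effector of apoptosis, with 0.99. Pmaip1, which encodes the BH3-only protein Noxa, had a log2 change of -0.01 and was not called. In the BCL2 family, 3 of 11 were higher (27.3%) and 2 lower (18.2%), against 18.7% and 22.8% of all tested genes. Bmf was up by 1.22 and the survival gene Bcl2 was at -1.02. Bcl2l11, which shares its locus with Acoxl, was up by 1.47. Leaving out exposed library 3 or control library 1 turned the median of that family from 0.10 to -0.14 or -0.16.

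The genes of mitosis were lower almost without exception. Of 48 tested members, 47 fell and none rose, and the median log2 change was -1.80. The exception was Foxm1, a transcription factor that drives mitotic genes, whose named transcripts had a log2 change of 0.06, and it lies in a locus shared with Tex52 whose summed level went from 11.3 to 2.80 FPKM. Cdc20, an activator of the anaphase-promoting complex, was at 27.1, 33.9 and 38.0 FPKM in control libraries and at 2.53, 3.48 and 3.55 in exposed ones, a log2 change of -3.02 (SE 0.189, limma adjusted p = 4.25e-08). Cdk1, the mitotic kinase, was at 38.2, 45.6 and 57.2 FPKM in control cells and at 5.37, 11.3 and 7.60 after exposure. Top2a, the topoisomerase that untangles chromosomes, was at 23.0, 25.5 and 28.7 and then at 3.05, 7.33 and 3.48. Exposed library 2 was the highest of the exposed libraries for both genes and still lay below every control library. Cdca3, Ube2c, Ccna2 (cyclin A2) and Cks2 fell, with log2 changes of -2.93, -2.76, -2.75 and -2.74, as did Ccnb1 (cyclin B1) with -2.46, Plk1 with -2.21 and Mki67, the proliferation marker, with -1.56.

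Promoters of mitotic genes are known to carry a CHR element (TTTGAA, or TTCAAA on the other strand) near the start site, often beside CCAAT boxes (CCAAT or ATTGG), which are bound by regulators of the cell cycle. Such promoters are shown because these genes moved together. The windows come from RefSeq on GRCr8, which is not the build of the expression table (Rnor_6.0), and lie within 250 bases before to 50 bases after the start, with matches to both motifs in capitals. Cdc20 is at chr5:137255821-137255900 on the minus strand, Plk1 at chr1:186147605-186147684 on the plus strand, Cdk1 at chr20:19265068-19265297 on the plus strand and Top2a at chr10:84473095-84473343 on the minus strand.
Cdc20: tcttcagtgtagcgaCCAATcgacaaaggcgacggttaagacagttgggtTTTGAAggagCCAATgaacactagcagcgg
Plk1: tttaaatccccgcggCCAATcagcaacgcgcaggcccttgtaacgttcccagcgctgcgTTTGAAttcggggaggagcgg
Cdk1: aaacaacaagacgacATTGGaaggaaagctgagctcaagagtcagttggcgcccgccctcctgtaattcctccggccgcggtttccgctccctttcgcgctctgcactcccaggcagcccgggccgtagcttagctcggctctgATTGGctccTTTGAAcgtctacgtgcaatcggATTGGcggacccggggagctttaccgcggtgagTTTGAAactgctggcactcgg
Top2a: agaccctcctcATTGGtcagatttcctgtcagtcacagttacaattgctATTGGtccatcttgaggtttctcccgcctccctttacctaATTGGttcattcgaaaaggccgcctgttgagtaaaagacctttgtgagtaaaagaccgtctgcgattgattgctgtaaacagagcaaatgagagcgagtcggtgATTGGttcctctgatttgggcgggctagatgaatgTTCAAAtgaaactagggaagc
In the Cdc20 window the CHR letters begin at position -51 from the start, between CCAAT boxes that begin at -86 and -41. Of 48 mitosis members, 40 had a promoter in the RefSeq table, and the CHR letters were found in 27 of them (67.5%), against 18.3% of 33469 rat promoters and 11.3% of the 8977 promoters of tested genes. CCAAT letters were in 30 (75%) against 37.5% of all promoters and 38.2% of those of tested genes. All 27 genes with CHR letters fell, but so did 47 of the 48 in the list, so the fall does not set them apart. Among 30 promoters of replication genes, which also fell, the CHR letters were in 3 (10%) and CCAAT in 18 (60%). A match is a description of these letters in the window and not a measured site.

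DNA replication genes fell as well. Of 38 tested members, 32 were lower and 2 higher, with a median log2 change of -1.47. Uhrf1, which copies DNA methylation at the fork, fell with a log2 change of -3.17, Rrm2, a subunit of ribonucleotide reductase, with -2.79, the helicase genes Mcm5 and Mcm6 with -2.67 and -2.55 and Tk1 with -2.65. The values of Rrm2 were 46.5, 64.8 and 72.3 FPKM in control cells and 3.61, 12.9 and 9.90 after exposure. Gins2, a helicase cofactor, and Tyms, thymidylate synthase, were the members that rose, by 1.04 and 0.72. Replication-dependent histone genes were lower in 9 of 16 tested cases and higher in none, with Hist1h1c at a log2 change of -2.04. The libraries were made from polyadenylated RNA, and transcripts of most such histone genes lack a poly-A tail. Genes of the nuclear lamina and high mobility group proteins were lower in 8 of 13 and higher in 1, led by Hmga2 (-2.04) and including Lmnb1 (-1.41), lamin B1. With annotated transcripts only, 4 of 11 were lower. The count of lower mitosis genes was 28 of 35 on that basis.

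The rest of the cell cycle and repair lists moved in both directions. Among G1 cyclins and kinase inhibitors, 9 of 18 were lower (50%) and 3 higher (16.7%), against 22.8% and 18.7% of all tested genes. Cdkn2c, Cdkn1c, Cdkn2a and Cdkn2b, which encode kinase inhibitors other than p21, fell, with log2 changes of -2.67, -1.48, -1.36 and -1.23, whereas Myc, Ccng2 and Rb1 rose by 2.20, 2.19 and 1.54. Among break repair and checkpoint genes, 9 of 29 were lower (31%) and 5 higher (17.2%), the higher share again near that of all tested genes. The lower ones included the homologous recombination gene Brca1 (-1.01) and the Fanconi genes Fancd2 (-1.69) and Fanci (-1.50). The higher ones included Rnf168 (1.11), a ubiquitin ligase at breaks, and Xrcc4 (0.97), of end joining. The count of higher repair genes was 3 without exposed library 1, and with annotated transcripts only 2 of 24 were higher and 6 lower.

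Heat shock chaperones included the largest rises of the comparison. Of 30 tested members, 21 were higher and 1 was lower, with a median log2 change of 1.32. Hspa1b, an inducible Hsp70 gene on chromosome 20 at 4877324 to 4879779 (Rnor_6.0, minus strand), was at 11.1, 11.0 and 9.15 FPKM in control libraries and at 5612, 4706 and 4553 in exposed ones. The means were 10.4 ± 1.10 and 4957 ± 573 FPKM (SD, n = 3 each), a 476-fold ratio, with a log2 change of 8.76 (SE 0.138, limma adjusted p = 2.77e-13). LOC108348108, a near-identical Hsp70 copy on the same chromosome, had a log2 change of 8.82, and how reads were split between the copies is uncertain. Hspa1l, the neighbouring Hsp70 gene, had one of 8.36, but 10 of its 11 assembled transcripts overlap Hspa1b on the other strand and hold 93.5% of its level, so its value is uncertain too.

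The co-chaperones and other families rose less steeply. Hsph1, an Hsp110 nucleotide exchange factor, was at 13.6, 11.7 and 10.4 FPKM in control cells and at 1021, 952 and 834 after exposure, a log2 change of 6.19. Hspb1, a small heat shock protein, was at 39.1, 43.2 and 55.3 and then at 521, 616 and 663 (log2 change 3.69). In both genes every exposed library lay above every control library by far more than the spread within a group. Bag3, Dnajb1 (an Hsp40), Chordc1 and Dnaja1, whose locus also holds Mir207, rose by 3.66, 3.27, 2.50 and 1.91. The mitochondrial chaperonin genes Hspd1 and Hspe1 rose by 3.11 and 1.00, and the Hsp90 genes Hsp90aa1 and Hsp90ab1 by 3.00 and 1.91. Hspa2, an Hsp70 gene of germ cells, was the member that fell, by 0.60, a call that was lost without exposed library 1 or control library 1 or 2. The named transcript of Hspa8, the constitutive Hsp70, was listed at 0 in every library, while the level of its locus, held by an unnamed transcript and the small RNA name RF00016, went from a mean of 393 to 2203 FPKM. With annotated transcripts only, 14 of 27 tested chaperones were higher.

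Heat shock factor 1 binds arrays of inverted GAA units, and the windows below are shown because they hold such letters in the genes that rose. The motif searched was GAANNTTC or TTCNNGAA, given in capitals, in the RefSeq windows on GRCr8. Hsph1 is at chr12:10427248-10427359 on the plus strand, Hspd1 at chr9:64084247-64084287, Dnajb1 at chr19:41431102-41431167 and Hspb1 at chr12:26432388-26432445, all 3 of these on the minus strand. The window of Hspa1b was not analysed here.
Hsph1: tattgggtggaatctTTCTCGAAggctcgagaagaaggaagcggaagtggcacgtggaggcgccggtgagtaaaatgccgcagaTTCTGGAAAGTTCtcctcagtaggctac
Hspd1: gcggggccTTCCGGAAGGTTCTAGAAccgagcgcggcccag
Dnajb1: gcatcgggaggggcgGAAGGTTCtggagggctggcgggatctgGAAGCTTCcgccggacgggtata
Hspb1: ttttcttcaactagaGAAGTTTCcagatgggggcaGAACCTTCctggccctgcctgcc
In the Hspd1 window 3 overlapping matches begin at positions -242, -237 and -232 from the start. Of 30 tested chaperone genes, 25 had a promoter in the table and 17 of these (68%) held the motif, 12 of them among the genes that rose and 1, Hspa2, the gene that fell. In the whole list 21 of 30 (70%) rose, so these counts do not set the genes with the motif apart from the list. The motif was in 15.9% of all 33469 promoters and in 11.4% of those of tested genes. The longer form with 3 units (GAANNTTCNNGAA or TTCNNGAANNTTC) was in 6 (24%) of the chaperone promoters, those of Chordc1, Dnaja1, Hspd1, Hspe1, Hsph1 and Serpinh1, against 0.798% of all and 0.49% of those of tested genes. Serpinh1, the collagen chaperone gene, had a log2 change of 0.38 and was not called (limma adjusted p = 0.0642). As above, matches say nothing about binding.

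**Figure D3:**
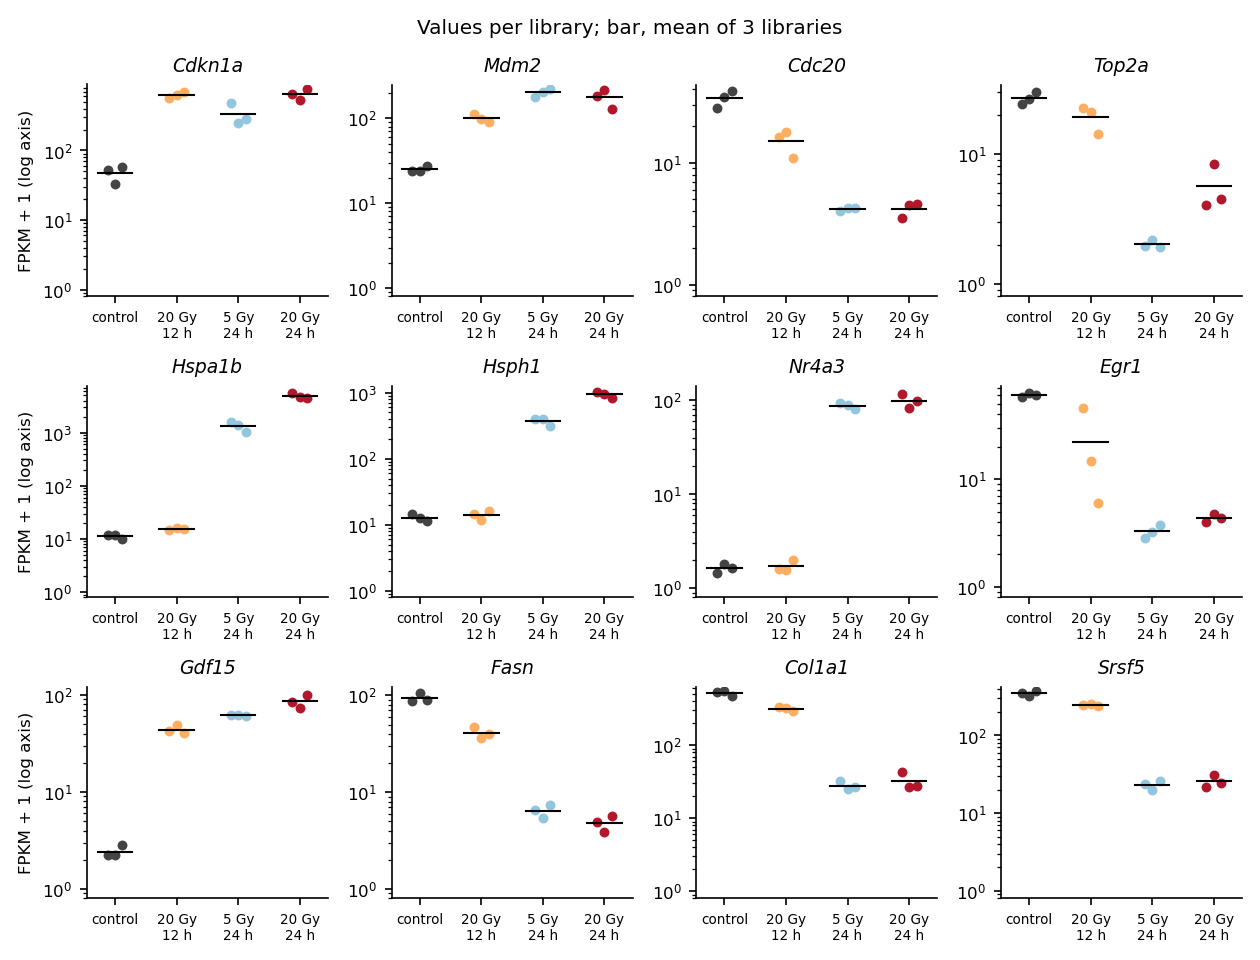
Levels of 12 genes in each library on a log axis for control, 20 Gy at 12 h, 5 Gy at 24 h and 20 Gy at 24 h, as FPKM + 1, with points for libraries and a bar for the mean of 3. Hspa1b reaches at most 14.8 FPKM at 12 h, and it and Hsph1 are highest at 20 Gy and 24 h, whereas Cdkn1a is already at 572 to 689 FPKM at 12 h.

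Immediate early genes, which respond to signals without new protein synthesis, split into risers and fallers. Of 30 tested members, 15 were higher and 8 lower, with a median log2 change of 0.64. The orphan nuclear receptor genes Nr4a3, Nr4a2 and Nr4a1 rose by 5.91, 5.10 and 4.26, and Nr4a3 was at 0.457, 0.795 and 0.653 FPKM in control libraries and at 114, 81.8 and 97.6 in exposed ones. The AP-1 genes Fos and Jun rose by 3.97 and 2.68, and Klf4 by 2.98. Dusp1, a phosphatase that turns off MAP kinases, rose from 89.8 ± 9.81 to 2306 ± 329 FPKM (SD, n = 3 each), a log2 change of 4.66. Fosl2, an AP-1 partner, had a log2 change of 5.83, all of it in 1 assembled transcript, while its annotated transcript was listed at 0 in the exposed libraries.

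The fallers were led by the EGR family of zinc finger factors. Egr3 was at 21.8, 25.5 and 29.9 FPKM in control cells and at 0.0835, 0.0893 and 0.362 after exposure, a log2 change of -4.50. Egr1 was at 56.7, 62.5 and 59.4 and then at 2.98, 3.77 and 3.37 (-3.79), and Egr2 fell by 2.43. Ier3 and Dusp2, which encodes another MAP kinase phosphatase, fell, with log2 changes of -2.31 and -2.30. Crem, a cAMP-responsive factor outside this list, rose by 4.64. The cAMP element TGACGTCA, which reads the same on both strands, was in 4 of the 22 promoters found for the list (18.2%), those of Dusp1, Ier2, Jund and Maff, against 1.83% of all promoters and 3.26% of those of tested genes, and 1 of these genes was called higher and 1 lower.

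Genes of protein synthesis stress rose in part. Of 29 genes of the endoplasmic reticulum stress and integrated stress responses, 9 were higher and 2 lower, and the median log2 change was 0.04 (-0.10 without exposed library 2 and -0.07 with annotated transcripts only). Atf3, a factor of the integrated stress response, was at 0.897, 0.795 and 0.814 FPKM in control libraries and at 17.1, 18.6 and 18.8 in exposed ones, a log2 change of 3.39. Ddit3, which encodes CHOP, Trib3, Herpud1, Cebpb, Chac1 and Ppp1r15a rose by 2.54, 2.35, 1.73, 1.71, 1.41 and 1.38, while Nupr1 fell by 1.05. Of 17 NRF2 antioxidant genes, 4 were higher (23.5%, near the 18.7% of all tested genes) and 2 lower, and 7 and 2 after rescaling. The lower count was 0 without control library 3, 1 without exposed library 1 and 4 without exposed library 2, and 2 of 16 were higher with annotated transcripts only. Osgin1, Hmox1 (heme oxygenase) and Nfe2l2, the gene of NRF2 itself, rose by 1.64, 0.81 and 0.68, and Nqo1 fell by 1.15. None of 35 proteasome genes was higher and 4 were lower by at most 0.67, a count that became 0 after quantile normalization. In the list of cold-inducible and splicing kinase genes, 3 of 15 were higher (20%, near the 18.7% of all tested genes) and 5 lower (33.3%). The splicing factor genes Srsf5, Srsf6 and Srsf2 fell, with log2 changes of -3.77, -2.65 and -1.93, Rbm3, a cold-inducible RNA-binding protein gene, fell by 1.04, and Clk1, a kinase of splicing factors, rose by 2.54. Srsf5 was at 347, 325 and 368 FPKM in control libraries and at 20.6, 30.3 and 23.1 in exposed ones with no overlap between the groups.

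Among the inflammatory genes that passed the filter, more rose than fell. Of 34 genes of NF-kB, cytokines and adhesion, 11 fell below it, and Il1a, Il1b, Cxcl2, Csf2 and Selp were listed at 0 in all 6 libraries. Of 23 tested genes of NF-kB, cytokines and adhesion, 12 were higher and 2 lower, with a median log2 change of 0.75. Lif, a cytokine of the interleukin-6 family, Ptgs2 (cyclooxygenase 2) and the chemokine receptor gene Ackr3 rose by 2.63, 2.61 and 2.61, Tnfaip3, a feedback inhibitor of NF-kB, by 2.12, and the chemokine genes Ccl7 and Cxcl1 by 1.88 and 1.72. Lif, Ccl7 and Birc3 reached at most 0.652, 0.84 and 0.343 FPKM in control libraries and so had little room to fall. Cxcl10, an interferon-responsive chemokine gene, fell by 2.28, from 14.1 ± 5.56 to 2.04 ± 0.812 FPKM (SD, n = 3 each), and Icam1, the leukocyte adhesion molecule gene, had a log2 change of 0.01 and was not called. Of 32 interferon genes, 10 fell below the filter, among them Ifit1, Ifit3, Mx1, Mx2, Oas1a and Rsad2. Of the 20 tested, 7 were higher (35%) and 2 lower (10%), against 18.7% and 22.8% of all tested genes. The higher ones included Irf1 (2.00), Cd274 (1.17), Irf7 (1.15) and Ifih1 (0.95), and the lower ones included Stat2 (-0.59). Ifit2 was at 1.43, 1.54 and 1.80 FPKM in control libraries and at 0.106, 0.351 and 0.132 in exposed ones. Isg20 was at 2.09, 3.02 and 0.877 and then at 0.335, 0.164 and 0.207. Of 16 genes of MHC class I and antigen processing, 1 was higher, the peptide transporter gene Tap1 (2.36), whose locus is shared with LOC103689996, and 2 were lower.

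Lipid synthesis genes fell nearly as a block. Of 29 tested genes of cholesterol and fatty acid synthesis, 28 were lower and 1 was higher, with a median log2 change of -1.87. Fasn, fatty acid synthase, was at 86.4, 104 and 87.8 FPKM in control libraries and at 3.92, 2.85 and 4.72 in exposed ones, a log2 change of -4.29 (SE 0.152, limma adjusted p = 3.21e-10). Hmgcs1, Sqle and Idi1, of the sterol branch, fell, with log2 changes of -2.73, -2.69 and -2.63, and so did the fatty acid desaturase and elongase genes Scd and Elovl6 with -2.67 and -2.57. Insig2, which retains the escort protein of the lipid regulator SREBP in the endoplasmic reticulum, was the sole riser, at 10.9 ± 0.294 FPKM in control cells and 19.3 ± 2.24 after exposure (SD, n = 3 each). Of the 19 promoters found for this list, 16 (84.2%) held a CCAAT box against 37.5% of all promoters.

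The extracellular matrix and the contractile apparatus were lower. Of 36 fibrillar and basement membrane matrix genes, 28 were lower and 1 was higher, with a median log2 change of -0.90. Col1a1, of fibrillar collagen, was at 535, 546 and 467 FPKM in control libraries and at 42.0, 25.8 and 26.5 in exposed ones (log2 change -4.03), and Col1a2 fell by 3.78. Col3a1 fell by 3.85, sharing its locus with AABR07067556.1, a name that lies within it, and the level of the locus went from 1372 to 89.2 FPKM. Col11a1, Col5a1 and Col4a2, the last of the basement membrane, fell, with log2 changes of -2.91, -2.39 and -2.24. Lama5, a laminin chain of vascular basement membrane, rose by 1.56. With annotated transcripts only, 17 of 29 matrix genes were lower. Of 18 contractile genes and targets of serum response factor, 13 were lower and 1 higher. Flna (filamin A), Lmod1, Srf and Actb (beta-actin) fell, with log2 changes of -2.46, -1.81, -1.72 and -1.57, the last from 3585 ± 359 to 1213 ± 190 FPKM (SD, n = 3 each), while Ccn1, a matricellular gene, rose from 87.3 ± 14.5 to 271 ± 72.1 FPKM.

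Some fibroblast markers, several of them also in the matrix list, fell with the matrix genes, and others did not. Markers of other cell types changed in few members or in both directions. The summed level of the fibroblast list, which includes Col1a1, Col1a2 and Col3a1, went from 4754 to 4924 FPKM in control libraries to 1781 to 2121 in exposed ones, with 10 of 19 tested members lower and none higher. Mgp, the largest part of that sum, was at 1698, 1981 and 2159 FPKM in control and at 627, 811 and 830 in exposed libraries. Control and exposed libraries overlapped for Pdgfra (51.7, 52.6 and 52.0 against 43.8, 56.1 and 54.8 FPKM), and also for Fbln1 and Igf2. The pericyte and smooth muscle list had a sum of 184 to 203 FPKM in control and 76.5 to 127 in exposed libraries. Of 9 tested members, 3 were lower (33.3%; Pdgfrb, Anpep and Cspg4) and 2 higher (22.2%; Myh11 and Mcam), against 22.8% and 18.7% of all tested genes. Myh11 reached at most 0.0914 FPKM in control libraries, so it could only be called higher. The endothelial list had a sum of 56.7 to 71.5 FPKM in control and 65.2 to 78.5 in exposed libraries. Without Tjp1, which shares its locus with another name, it was 56.7 to 71.5 in control and 48.7 to 54.0 in exposed libraries. In bulk libraries, fewer cells of a type and less RNA per cell cannot be told apart, and the part of cell composition in the matrix result was not tested. Astrocyte genes were lower in 2 of 5 and higher in 1, and neither of the 2 tested oligodendrocyte genes was called. Of 13 microglial and 9 neuron markers, 12 and 6 fell below the filter. Tmem119, the 1 tested microglial gene, and Stmn2, 1 of 3 tested neuron genes, were lower. Cx3cr1, Ptprc, Trem2, Rbfox3, Gad1 and Slc17a7 were listed at 0 in all 6 libraries, so these 2 calls do not show a change of microglia or neurons. Of 2 sex-linked genes, 1 was lower.

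Barrier and vascular signalling genes changed in single members. Of the 13 tested endothelial genes, 2 were higher (15.4%) and 1 lower (7.69%), against 18.7% and 22.8% of all tested genes. The 2 higher ones, Foxq1 and Tjp1, passed the filter only through exposed libraries, so a higher call was the only one open to them. Foxq1, a transcription factor of brain endothelium, was at 0, 0.667 and 0 FPKM in control libraries and at 2.87, 7.21 and 8.55 in exposed ones. Lsr, of tricellular junctions, was at 4.69, 4.33 and 3.91 and then at 2.35, 1.35 and 1.95. Tjp1, which encodes ZO-1, was called higher (log2 change 4.43), but it lies in a locus with several names whose total went from 24.5 to 46.5 FPKM, so the named transcripts overstate the change. Kdr, a VEGF receptor gene, was at 0.729 to 0.866 FPKM in control and 0.288 to 0.529 in exposed libraries, and Slc2a1, the glucose transporter gene, was at 23.6 ± 3.30 and 17.3 ± 1.94 (SD, n = 3 each), both with a fold change under 1.5 on the log2(FPKM + 1) scale. Of 14 vasoactive genes, 3 were higher, with Edn1, the gene of endothelin 1, up by 1.56, and 3 were lower, with Ace at a log2 change of -2.18. These were 21.4% each way, near the shares of all tested genes, and the lower count was 1 without exposed library 1.

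Calcium, growth factor and clock genes were also measured. Store-operated calcium entry refills calcium stores through STIM sensors and ORAI channels. Of 16 tested genes of this system and of calcium stores, 4 were higher and 4 lower, 25% each way against 18.7% and 22.8% of all tested genes. Calhm2, a calcium homeostasis modulator gene, Trpc1, Orai2 and Stim2 rose by 1.52, 0.97, 0.76 and 0.75, and Orai2 was at 3.34, 3.32 and 3.13 FPKM in control cells and at 6.04, 5.70 and 7.06 after exposure. Itpr3, a store release channel gene, and Stim1 fell, with log2 changes of -2.17 and -0.61. Orai3 had a log2 change of -1.08 and was called lower, but shares its locus with Fbxl19 and Setd1a, and the total of that locus was 28.8 and 28.5 FPKM. Of 27 genes of TGF-beta, BMP and GDF signalling, 8 were higher (29.6%) and 7 lower (25.9%). Gdf6, Bmpr1a, Id2 and Smad7 were up by 2.89, 1.49, 1.01 and 0.90. Ltbp2, Ltbp1 and Tgfb1 itself were lower, with log2 changes of -2.32, -1.72 and -1.70. Of 22 Wnt genes, 3 were higher (13.6%) and 8 lower (36.4%). The receptor genes Fzd2 and Fzd7 had log2 changes of -2.39 and -2.07 and Tcf7l2 was up by 1.69. The median of -0.02 for the Wnt genes turned to 0.11 after quantile normalization. Of 18 circadian clock genes, 12 were higher and 1 lower, among them Rora (2.20), Clock (1.52), Nfil3 (1.40), Nr1d1 (1.31) and Per1 (1.00) against Ciart (-1.40). With annotated transcripts only, 6 of the 18 clock genes were higher.

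Of 18 matrix proteases and their inhibitors, 4 were higher and 4 lower, 22.2% each way, near the 18.7% and 22.8% of all tested genes. Adamts1 and Adamts5 were up by 2.97 and 1.48 and Mmp2, a gelatinase gene, by 1.23. Timp1, a protease inhibitor gene, was at 108, 119 and 161 FPKM in control libraries and at 0.249, 65.3 and 0.300 in exposed ones, and the total of the locus it shares with Araf went from 177 to 76.6 FPKM. Exposed library 2 set the spread of that gene. Adam8, a membrane protease gene outside the list, was listed at 0 in all control libraries and at 45.1, 30.9 and 37.1 FPKM in exposed ones, while the total of its locus, shared with Tubgcp2 and LOC103691261, went from 20.1 to 58.8 FPKM.

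Energy metabolism and translation showed smaller shifts in nuclear genes. Of 24 glycolysis and hypoxia genes, 3 were higher and 9 lower (2 and 6 after quantile normalization), with Pfkfb3, which makes an activator of glycolysis, up by 2.54 and Pfkp, Eno1 and Pgk1 lower, with log2 changes of -1.76, -0.99 and -0.97. Of 83 nuclear genes of oxidative phosphorylation, 18 were lower (21.7%, near the 22.8% of all tested genes) and none higher, with a median of -0.38, and the count of lower genes was 11 after rescaling and 11 without control library 3. Of 74 cytosolic ribosomal protein genes, 1 was higher and 1 lower, with a median of -0.06 that turned to 0.04 after quantile normalization and to 0.02 after rescaling. Of 11 mitochondrially encoded genes, 5 were lower and none higher. Mt-nd1, a subunit of complex I, fell by 1.24. Mt-nd2 was at 1436, 1224 and 1515 FPKM in control libraries and at 793 in exposed library 1, and was listed at 0 in the other two, whereas Mt-co1, of complex IV, had a log2 change of -0.05 in a locus shared with Mt-atp6, Mt-atp8 and Mt-co3 and was not called. The mitochondrial names AY172581.23, AY172581.20, AY172581.17, AY172581.14 and AY172581.16 fell, with log2 changes of -4.47, -4.40, -4.10, -4.04 and -4.01, and AY172581.17 shares its locus with AY172581.11.

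The remaining large changes lay outside the lists. Slc16a6, a monocarboxylate transporter gene, rose from 0.696 ± 0.361 to 42.8 ± 5.50 FPKM (SD, n = 3 each), a log2 change of 4.71. Rasgef1b had a log2 change of 4.79, with its level held by 2 assembled transcripts. AABR07047256.1 (5.73) and AABR07008016.1 (4.66) are unnamed genes in loci shared with Gem and Zswim6, and the totals of those loci went from 1.71 to 206 and from 3.28 to 91.1 FPKM. Slc37a3 had a log2 change of -4.51, but the total of the locus it shares with Kdm7a went from 27.9 to 54.8 FPKM, the opposite way. Tuba1b, an alpha-tubulin gene, fell by 3.88, and its locus, shared with Tuba1a, went from 834 to 84.9 FPKM. NEWGENE_621351 (-3.94) and the host transcripts named Mir22 (-3.93) were held mostly by assembled transcripts, and the mature miRNA was not measured.

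The dose comparison set 20 Gy against 5 Gy at the same time, with no control library in it. The 2 doses differed in few genes, 115 higher (0.879%) and 185 lower (1.41%) after 20 Gy. The split of these calls depended on scaling, with 137 higher and 97 lower after quantile normalization and 111 and 299 after rescaling to equal FPKM sums. Fitting the 2 groups alone gave 51 calls in all, and leaving out library 3 of 5 Gy gave 178. Among the gene lists, mitosis and heat shock held the most members called.

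Of 30 heat shock genes, 9 were higher after 20 Gy than after 5 Gy and none lower, and 8 to 10 were higher when any library was left out. Hspa1b was at 1607, 1412 and 1044 FPKM after 5 Gy, each below the lowest library of 20 Gy, a log2 difference of 1.89 (95% interval 1.59 to 2.19, limma adjusted p = 1.37e-05). Hspb1, Bag3, Dnajb1, Hsph1, Hsp90aa1 and Hspd1 were higher by 2.45, 1.70, 1.63, 1.34, 1.30 and 1.04, and Hsp90ab1 by 0.62. Of 48 mitosis genes, 19 were higher after 20 Gy than after 5 Gy and none lower, although both doses lay below the control level. Top2a was at 0.962, 1.17 and 0.904 FPKM after 5 Gy and at 3.05, 7.33 and 3.48 after 20 Gy, a log2 difference of 1.41, and Pbk, Cks2, Ccna2 and Mki67 were higher by 1.58, 1.51, 1.45 and 1.30. The count of 19 fell to 10 without exposed library 2 and to 10, 11 or 9 without library 1, 2 or 3 of 5 Gy, and to 4 with annotated transcripts only. Rrm2, of 3 replication genes that were higher, had a difference of 1.96, and 4 of 16 histone genes were higher.

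Single members of other groups differed as well. Jun was at 18.7, 18.5 and 18.4 FPKM after 5 Gy and at 190, 122 and 143 after 20 Gy, a log2 difference of 2.94 (95% interval 2.61 to 3.27, limma adjusted p = 1.21e-06), and was the sole immediate early gene called between the doses. Atf3, Ccl7, Ccn1 and Adam8 (in a shared locus) were higher after 20 Gy by 1.94, 1.95, 1.58 and 2.60. In the stress response list 4 genes were lower after 20 Gy than after 5 Gy, Chac1, Trib3, Asns and Herpud1, with log2 differences of -1.30, -1.20, -0.91 and -0.68, and this count was 1 without library 2 of 5 Gy. For other leading genes no difference between doses was called, which does not show that they were equal. The 95% intervals of the log2 difference were not adjusted for the number of genes, unlike the calls. They lay above 0 for Cdkn1a (0.26 to 1.69) and Gdf15 (0.16 to 0.77) and below 0 for Fasn (-0.75 to -0.09). The limma adjusted p was 0.0807 for Gdf15 and 0.138 for Fasn. They spanned 0 for Col1a1 (-0.19 to 0.56), Cdc20 (-0.41 to 0.41) and Nr4a3 (-0.14 to 0.46).

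**Figure D4:**
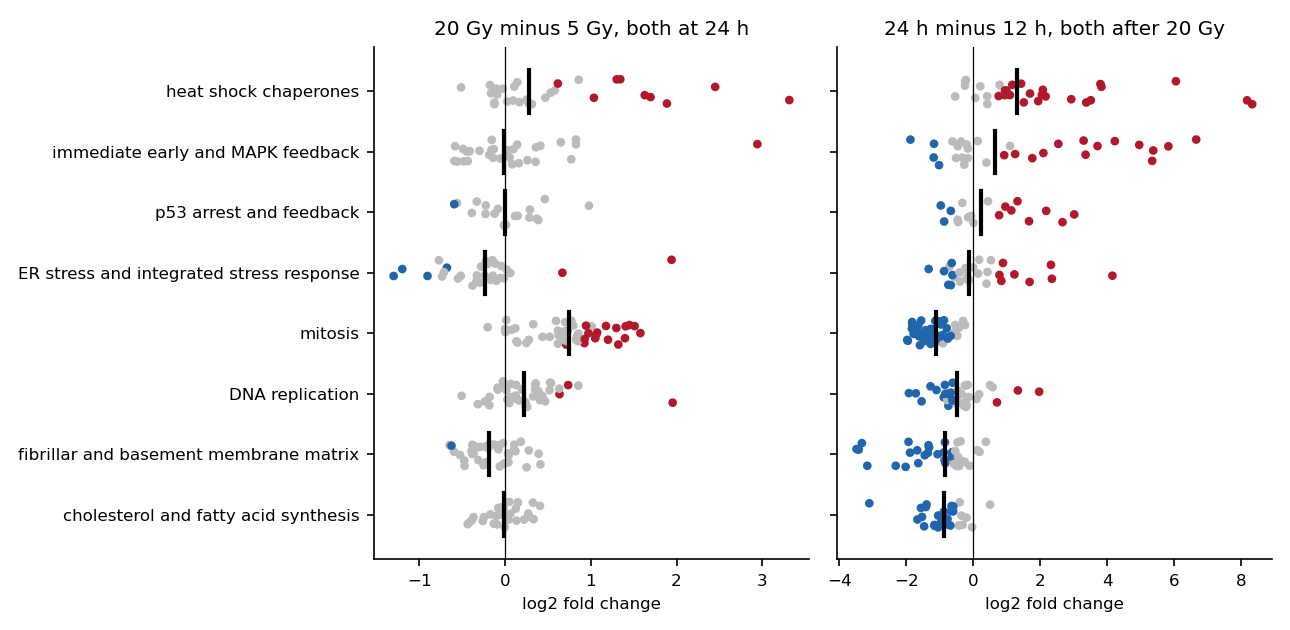
Log2 fold change of each tested member of 8 gene lists, 1 point a gene with called genes in colour and a bar at the median, at left for 20 Gy against 5 Gy at 24 h and at right for 24 h against 12 h after 20 Gy. For dose the heat shock and mitosis lists hold 9 and 19 members called higher, and for time 21 of 30 heat shock genes lie to the right and 40 of 48 mitosis genes to the left.

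The time comparison set 24 h against 12 h after 20 Gy, again with no control library. It called 2015 genes higher (15.4%) and 2654 lower (20.3%) at 24 h. At 12 h Hspa1b was at 13.6, 14.8 and 14.3 FPKM, Nr4a3 at 0.602, 0.566 and 1.02 and Dusp1 at 128, 131 and 105. The heat shock rise and much of the immediate early rise therefore appeared between these times, with 21 of 30 and 14 of 30 members higher at 24 h and log2 differences of 8.34, 5.83 and 4.23 for those 3 genes. Of 48 mitosis genes, 40 were lower at 24 h than at 12 h, and of the lipid and matrix genes 22 of 29 and 22 of 36. Cdc20 was at 15.3, 16.8 and 9.91 FPKM, Fasn at 46.2, 35.4 and 38.8 and Col1a1 at 333, 320 and 297 at 12 h, between the control and the 24 h level in every library. Cdkn1a was at 572, 632 and 689 FPKM at 12 h and did not differ detectably from 24 h, with a log2 difference of 0.01 and limma adjusted p = 0.985. Adam8, in a shared locus, was likewise already at 21.8, 30.0 and 41.3 FPKM at 12 h. Since no unexposed culture of 24 h was analysed here, changes that arose between 12 h and 24 h cannot be told apart from those of culture time.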

How the data were processed

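Polyadenylated RNA, selected from the total RNA of rat BMECs, was sequenced in 15 libraries, 3 per group. Per the paper's methods and the submitters' processing notes, the authors trimmed reads with Trimmomatic, checked them with FastQC, mapped them to Rnor_6.0 with HISAT2 2.0.13, assembled transcripts with StringTie and deposited FPKM per transcript in 1 table, normalised to length and aligned reads. kallisto and edgeR are also named there, but counts were not analysed here, so no count model was run. The aligned bases of each library were recovered from the spacing of low FPKM values, of which 51% to 66.9% came out whole within 0.05.

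The table held 85322 transcripts. FPKM were summed per gene name, and 29433 transcripts without a name were added to the gene of their locus where it held 1 name. They carried 20.4% to 24.4% of all FPKM. Sums of annotated transcripts only were tried as an alternative, chosen after seeing the data. The 4738 unnamed transcripts of loci with several names and 10087 of loci with none were left out. Sums of 13081 genes with a mean of at least 0.5 FPKM were tested with limma 3.58.1 in R 4.3.3 on log2(FPKM + 1) (variance trend on the mean level, 1 mean per group, 10 residual degrees of freedom, two-sided, Benjamini-Hochberg over all genes). The pipeline was tested on simulated data.

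Genes named are the 15 largest rises and 15 largest falls among called genes with a mean of at least 5 FPKM, groups that do not overlap and a name on 1 chromosome, the largest changes in 40 gene lists, those of them that differ with dose, and cell type markers. Members just outside these rules are named where a list's exception is described. The comparison, lists and rules were chosen with earlier results of these data known. Alternatives were a pseudocount of 0.1, a minimum of 1 FPKM or none, quantile normalization, equal FPKM sums, 2 groups only, no trend, a replicate block, unadjusted p, a fold change of 2, the highest transcript, unnamed loci, and each library left out. A few single genes are left out of the text.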

Additional observations from a re-analysis of the deposited data

Results flagged for a closer look

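Genes among the largest changes after 20 Gy at 24 h that differed between 20 Gy and 5 Gy at the same time are listed here, each by its limma test of the difference. The Hsp70 genes Hspa1b and LOC108348108 were higher after 20 Gy by 1.89 and 1.95 on the log2 scale, with every library of 20 Gy above every library of 5 Gy. Hspa1l was higher by 3.32, a value drawn mostly from transcripts that overlap Hspa1b. Hsph1 was higher by 1.34. Adam8, a membrane protease gene, was higher by 2.60, at 45.1, 30.9 and 37.1 FPKM after 20 Gy and 3.75, 6.39 and 6.11 after 5 Gy. Its locus is shared with other names, so these values can shift between transcripts of the locus. The mitochondrial name AY172581.14 was lower after 20 Gy, with a difference of -1.78. The causes were not tested.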

How the results depend on the processing

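Of the counts of calls recomputed under each alternative, 82 values stayed within 1.5 times the count in the report and 13 did not. For 20 Gy at 24 h against control, the total of 5428 became 3521 (1415 higher) with annotated transcripts only and 2701 (1226 higher, 1475 lower) at a fold change of 2, since fewer genes can pass, and ranged from 5135 to 5568 when 1 library was left out (2365 to 2499 higher, 2734 to 3069 lower). It was 5414 with the replicate block. Libraries of control and of 20 Gy at 24 h with the same replicate number did not deviate together, with correlations of 0.055, -0.030 and 0.036. Those of 5 Gy and 20 Gy at 24 h had weak positive correlations of 0.192, 0.088 and 0.081, against -0.122 to 0.036 for different numbers. The numbers were not taken to pair samples. No call count moved by over 1.5 times under the block, which gave 274 calls between the doses at 24 h. Of the 4629 calls among the 11310 genes also tested on annotated transcripts, 3111 were called the same way and 26 the opposite way. For 20 against 5 Gy at 24 h, the total of 300 became 112 with annotated transcripts only, 84 at a fold change of 2, 142 with the highest transcript, 51 with only the 2 groups and 582 without adjustment, and ranged from 178 to 388 when 1 library was left out. For 24 h against 12 h after 20 Gy, the total of 4669 became 2830 with annotated transcripts only and 2125 at a fold change of 2, and ranged from 4294 to 4902. Unless stated, the cause was not tested.

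Small counts of list members called against control also moved by over 1.5 times. Without exposed library 1, 1 gene was lower in each of the stress response, NF-kB and interferon lists, against 2 in the report, and 1 stress and 1 interferon gene without control library 3, as was 1 interferon gene without control library 2. Without exposed library 2, 5 Wnt genes were higher and 2 p53 arrest genes and 2 ribosomal protein genes lower, and without exposed library 3, 2 clock genes and 2 endothelial genes were lower and 1 pericyte gene higher. Without control library 3, 2 proteasome genes were lower and 2 ribosomal protein genes higher, and without control library 2, 2 ribosomal protein genes were lower. With annotated transcripts only, 3 splicing genes, 1 NF-kB gene and 1 interferon gene were lower, no p53 arrest gene was lower, and 1 Wnt gene, 1 glycolysis gene and 1 pericyte gene were higher.

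Of the values of single genes, 560 kept their direction and side of the threshold. With annotated transcripts only, Fosl2 turned to -0.10 and NEWGENE_621351 to 0.61, since their levels lay in assembled transcripts, and Mir22 was at -1.52 and not called. Timp1 lost its call without exposed library 1 or 3 (-3.79 and -3.82), Tuba1b without exposed library 1 (-2.76) or with a pseudocount of 0.1 (-3.97) and NEWGENE_621351 with the highest transcript (-4.14). There were 3 libraries per group, culture time was shared with exposure, and the aligned depth was 5.44 to 7.49 gigabases.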
